A study of Mus musculus with 4 samples.

Results

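Oxt, Avp, Pmch, Hcrt, Gal, Trh and Crh encode hormones and neuropeptides that hypothalamic neurons make, and they are followed here through 4 spatial transcriptomic sections labelled as hippocampus. The 7 genes were taken by symbol from the 32285 genes of the count files, and all 7 were found. They were chosen by their own levels in these sections, in which Oxt had separated trained from untrained mice, so the trained and untrained values below are a description without a test.

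Oxt encodes the precursor of oxytocin and Avp that of vasopressin, the 2 hormones that magnocellular neurons of the paraventricular and supraoptic nuclei make and release from the posterior pituitary. Pmch (melanin-concentrating hormone) and Hcrt (hypocretin, also named orexin) mark separate but intermingled neurons of the lateral hypothalamus that act on feeding, sleep and wakefulness. Gal (galanin), Trh (thyrotropin-releasing hormone) and Crh (corticotropin-releasing hormone) are made in several hypothalamic nuclei, and Crh also in cortical interneurons. Such precursors are among the most concentrated transcripts of the brain. The hypothalamic cell bodies that hold them sit in small nuclei far below the dorsal hippocampus.

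The study asked which transcripts differ in the dorsal hippocampus while an active place avoidance memory is kept, 3 days after a retention test. All 4 mice were males of the ArcCreERT2::eYFPflx genotype on a C57BL/6 background, 3 to 4 months old, and all received 4-hydroxytamoxifen, so that cells with an active Arc promoter were tagged with eYFP. The 2 trained mice had learned to avoid a shock zone on a rotating arena, and the 2 untrained mice had been on the same arena with no shock. Each mouse gave 1 coronal section that was measured on a 10x Visium array, where each spot captures the transcripts of a small region with several cells, so that fewer cells and less RNA per cell cannot be told apart.

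The number of spots over tissue was 2865 in trained 1, 3055 in trained 2, 2359 in untrained 1 and 2661 in untrained 2, and unique molecular identifiers (UMIs) summed to 7119995, 10330015, 3560294 and 6581748. Levels are given as CPM, the UMIs of a gene per 1000000 UMIs of the spots it was counted in, with exact Poisson 95% intervals that cover counting error only. Regions are spots led by a marker list: 313, 495, 324 and 317 spots were led by the hypothalamus list, of which Hmx3 had 0 UMIs in every section. Spots led by the CA1, CA3 or DG lists numbered 419, 382, 446 and 415, and many of them lay scattered outside the hippocampus. The largest contiguous block of such spots, 212, 198, 215 and 201 spots in the place of the dorsal hippocampus, was therefore used for hippocampal levels, a choice made after seeing the data.

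Oxt and Avp are neighbours on mouse chromosome 2 (mm10/GRCm38). The Oxt gene (ENSMUSG00000027301, + strand) spans chr2:130576173-130577054 and the Avp gene (ENSMUSG00000037727, - strand) spans chr2:130580620-130582554, so that their 3′ ends face each other across 3565 bases. The other genes lie on other chromosomes: Pmch at chr10:88091072-88092375, Hcrt at chr11:100761069-100762931, Gal at chr19:3409915-3414544, Trh at chr6:92242061-92244650 and Crh at chr3:19693401-19695396. RefSeq (GRCm38.p6) gave a promoter window for 6 of the 7 genes. The 250 bases before the start are shown for the magnocellular pair, because these 2 genes have site spots in common in both trained sections, at chr2:130575919-130576168 (+) for Oxt and chr2:130582589-130582838 (-) for Avp, with TGACCT on either strand and ATAAA in capitals.
Oxt: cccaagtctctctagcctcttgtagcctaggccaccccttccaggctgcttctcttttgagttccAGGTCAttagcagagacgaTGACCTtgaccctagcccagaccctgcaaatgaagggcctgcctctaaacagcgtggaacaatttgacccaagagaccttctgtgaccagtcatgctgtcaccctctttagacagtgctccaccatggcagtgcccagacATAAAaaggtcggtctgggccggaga
Avp: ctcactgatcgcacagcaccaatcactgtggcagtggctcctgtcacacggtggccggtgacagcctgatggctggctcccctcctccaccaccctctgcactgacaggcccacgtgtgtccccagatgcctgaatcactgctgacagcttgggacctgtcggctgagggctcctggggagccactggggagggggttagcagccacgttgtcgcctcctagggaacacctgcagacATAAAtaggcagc

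TGACCT is the half-site that nuclear receptors bind. The Oxt window held it at -166 to -161 on the gene's strand and at -185 to -180 on the other strand (read as AGGTCA), whereas the Avp window did not hold these letters. TGACCT is in 14.0% of the 32851 upstream windows of this length on either strand. Both windows held ATAAA, part of a common core promoter box, on the gene's strand, at -26 to -22 for Oxt and -13 to -9 for Avp, and 5.50% of all windows hold it in their last 40 bases. These matches describe the letters and not the binding of a factor.

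Oxt, the oxytocin gene, was nearly all in the trained sections. It had 1823 UMIs in trained 1 and 566 in trained 2, against 12 in untrained 1 and 5 in untrained 2. In CPM these were 256 (244 to 268), 54.8 (50.4 to 59.5), 3.37 (1.74 to 5.89) and 0.760 (0.247 to 1.77). The trained and untrained sections did not overlap, and the 2 trained sections also lay well apart.

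Avp, the vasopressin gene, followed another order. Its counts were 1504 and 2095 UMIs in the trained sections and 371 and 59 in the untrained sections, or 211 (201 to 222), 203 (194 to 212), 104 (93.9 to 115) and 8.96 (6.82 to 11.6) CPM. The trained sections were higher and their intervals overlapped. Untrained 1 lay between them and untrained 2.

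The lateral hypothalamic genes did not separate the conditions. Pmch had 429 UMIs in trained 1, 13667 in trained 2, 2661 in untrained 1 and 3470 in untrained 2, with 60.3, 1323, 747 and 527 CPM. Hcrt had 5, 6186, 350 and 180 UMIs, with 0.702, 599, 98.3 and 27.3 CPM. For both genes the highest and the lowest section were trained ones, and the section with the most Oxt had the least Pmch and Hcrt.

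Gal had 68, 589, 23 and 100 UMIs in the same order of sections, and 9.55, 57.0, 6.46 and 15.2 CPM. Trh had 131, 487, 140 and 55 UMIs, and 18.4, 47.1, 39.3 and 8.36 CPM. Crh was sparse, with 47, 59, 14 and 36 UMIs, and 6.60, 5.71, 3.93 and 5.47 CPM. The conditions overlapped for Gal and Trh. The Crh values were higher in both trained sections, but the Crh intervals overlapped in all 4 sections.

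**Figure D1:**
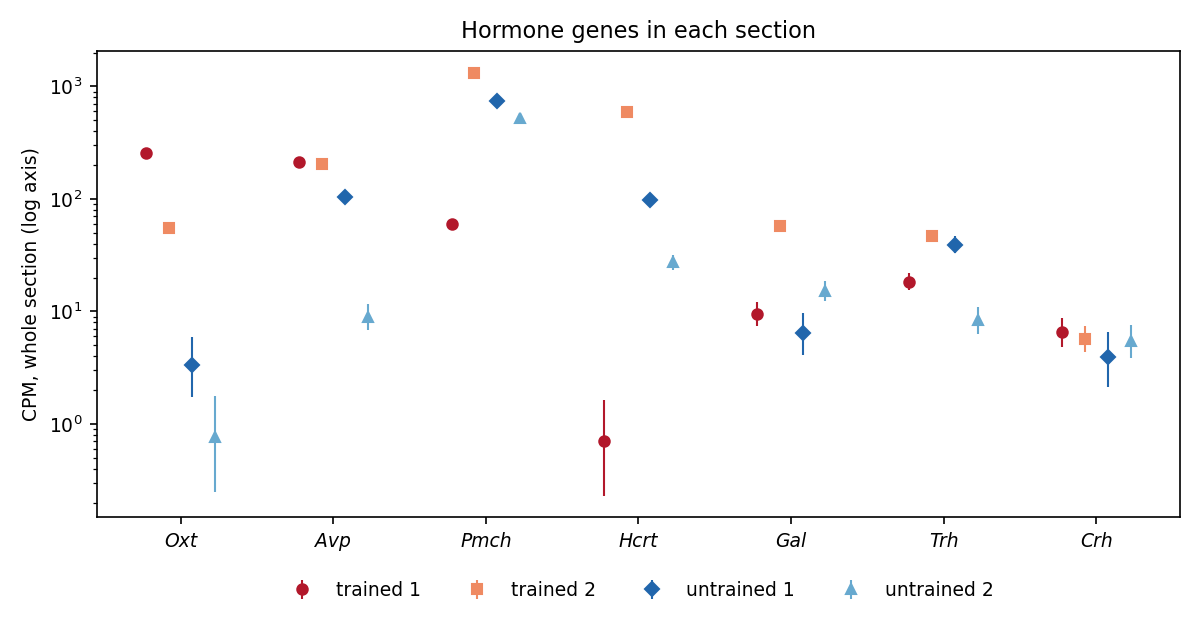
Level in CPM over the whole section (y axis, log scale) of each hormone gene (x axis) in the 4 sections, with exact Poisson 95% intervals as bars. Oxt runs from 256 in trained 1 to 0.760 in untrained 2, whereas Pmch and Hcrt are highest in trained 2 and lowest in trained 1.

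Oxt, Avp, Pmch and Hcrt formed dense sites in the sections where they were abundant, whereas Crh was spread over single spots, with its 47 UMIs of trained 1 in 46 spots. A site was defined as spots with at least 10 UMIs of a gene, joined where they lay within 2 steps of each other, a step being the distance between neighbouring spots. In trained 1 the largest Oxt site had 25 spots and 725 UMIs beside the midline, with its peak of 81 UMIs in a spot led by the ependyma list at array row 55 and column 105. The ependyma list marks the lining of the ventricles, and the position was not checked against section images. A second Oxt site of 3 spots held 226 UMIs at the ventral edge of the section, with the section's peak of 109 UMIs at row 65 and column 79.

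The main Avp site of trained 1 overlapped the ventral Oxt site. It had 9 spots and 570 UMIs with a peak of 217 at row 66 and column 76, and the spots of the ventral Oxt site and their neighbours held 530 Avp UMIs. Another Avp site of 8 spots and 248 UMIs lay at the ventral edge near the midline, with its peak at row 65 and column 101, and only 25 Oxt UMIs lay within 1 step of it. The other 3 Avp sites had 1 or 2 spots, with 56, 27 and 23 Avp UMIs, and 140, 33 and 75 Oxt UMIs lay within 1 step of them. Of the 5 Avp sites, the ventral one near the midline thus had the least Oxt beside it.

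Trained 2 had its largest Oxt site at the ventral edge, with 10 spots, 233 UMIs and a peak of 83 at row 74 and column 72. The largest Avp site of that section had 19 spots, 1328 UMIs and a peak of 296 at row 76 and column 70, and 291 Oxt UMIs lay within 1 step of it. The other Oxt sites of this section were one of 2 spots with 30 UMIs at row 68 and column 56, and a single spot of 15 UMIs at row 69 and column 103 that had 839 Pmch UMIs within 1 step.

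Neither untrained section had an Oxt site. The highest spot had 2 Oxt UMIs in untrained 1 and 1 in untrained 2. Of the 12 Oxt UMIs of untrained 1, 9 lay in spots led by the hypothalamus list. Untrained 1 still had an Avp site of 4 spots and 118 UMIs with a peak of 49, and untrained 2 had a single Avp spot of 14 UMIs. The untrained sections thus held Avp sites without an Oxt site beside them.

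Oxt and Avp shared spots to a different extent in the 2 trained sections. In trained 1, 5 spots had at least 10 UMIs of both, which was 15.6% of the 32 Oxt spots and 23.8% of the 21 Avp spots. In trained 2, 9 spots had both, 69.2% of the 13 Oxt spots and 42.9% of the 21 Avp spots. The shared spots were a larger part of either gene's spots in trained 2.

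Pmch and Hcrt marked the lateral hypothalamus most fully in trained 2. Pmch had a site of 98 spots and 9380 UMIs there, with a peak of 591 in 1 spot, and Hcrt one of 44 spots and 4256 UMIs with a peak of 456. Both genes reached 10 UMIs in 29 spots, 26.1% of the 111 Pmch spots and 54.7% of the 53 Hcrt spots. The 2 genes occupied adjoining and partly shared spots, and Pmch extended beyond Hcrt.

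In the untrained sections the largest Pmch sites had 28 spots and 1293 UMIs in untrained 1, and 48 spots and 2101 UMIs in untrained 2. The largest Hcrt sites had 3 spots each, with 96 and 89 UMIs. Trained 1 held Pmch sites of at most 3 spots and 174 UMIs, and no spot had more than 1 UMI of Hcrt. The lateral hypothalamic sites were thus small or absent in trained 1 and largest in trained 2.

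Gal and Trh formed sites only in trained 2 under this definition. Gal had sites of 7 and 5 spots with 104 and 102 UMIs, and Trh had one of 4 spots and 60 UMIs. In the other sections no spot passed 9 UMIs of Gal or 7 of Trh. The definition takes raw UMIs, so fewer spots can reach it in a section of low depth. The peak Trh spot was at 2274 CPM in trained 2 (19 UMIs) and 2011 in untrained 1 (7 UMIs). The peak Gal spot was at 4248 CPM in trained 2 and at most 1358 in the other sections. Crh had no spot above 3 UMIs in any section. Crh thus formed no hypothalamic site in these sections.

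**Figure D2:**
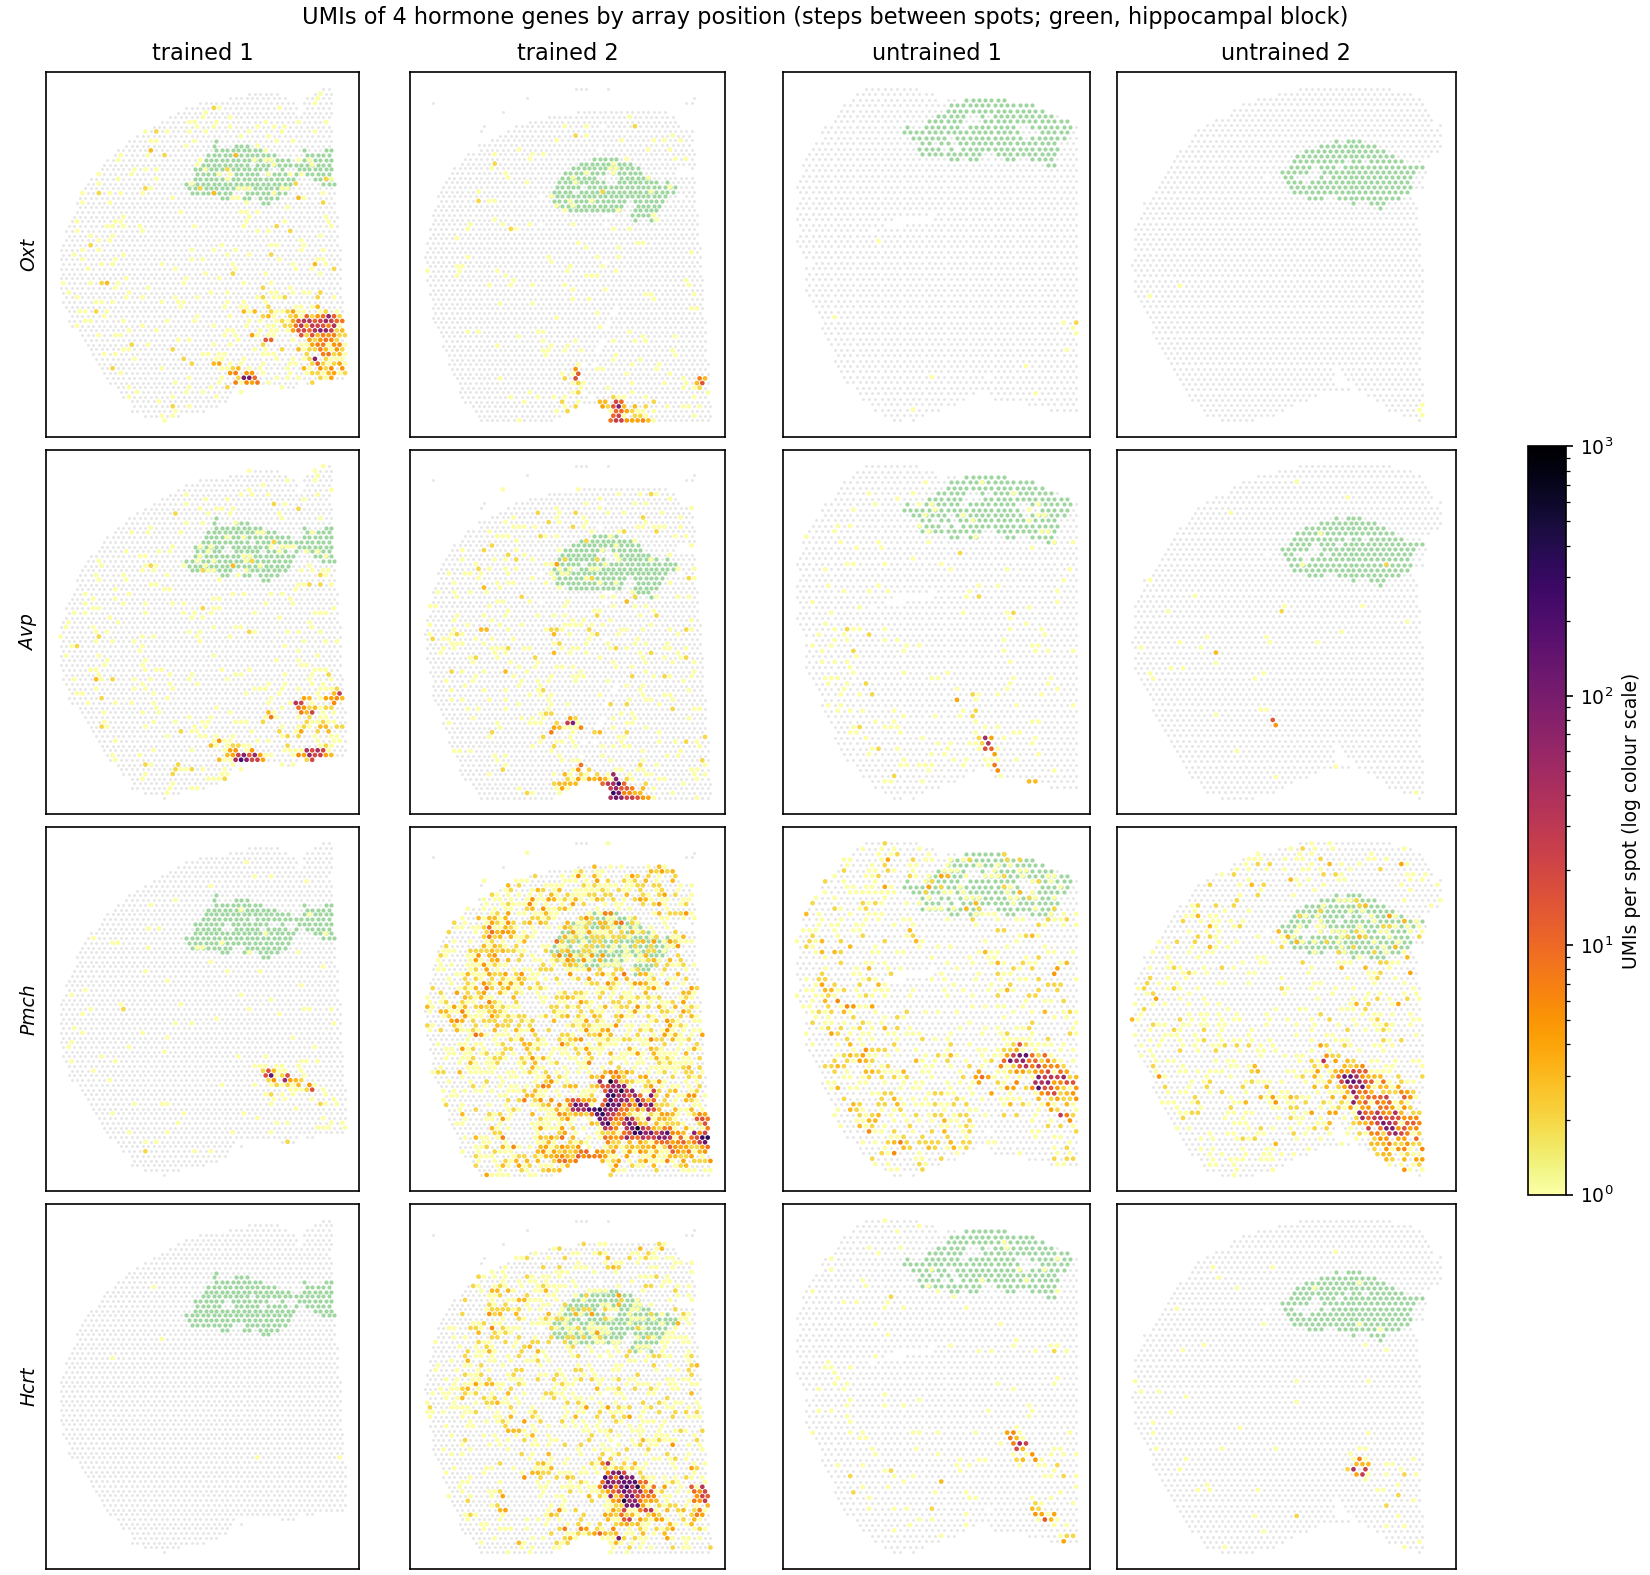
Array positions of the spots over tissue (grey) in the 4 sections (columns), with the UMIs per spot of Oxt, Avp, Pmch and Hcrt (rows) on a log colour scale and the hippocampal block in green. Dark sites lie ventrally and beside the midline, Oxt sites are seen in the 2 trained sections only, and single UMIs lie over the whole section wherever a gene has a large site.

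Hypothalamic genes that are no hormones varied between the sections in different ways. Sim1, a factor needed for the paraventricular and supraoptic nuclei, had 28 and 19 UMIs in the trained sections and 5 in each untrained section, or 3.93, 1.84, 1.40 and 0.760 CPM. Otp, a second factor of these nuclei, was at 11.9, 10.1, 10.1 and 6.53 CPM. Nr5a1, which marks the ventromedial nucleus, had 0, 25, 5 and 0 UMIs. In the hypothalamus marker list, Hap1 was at 167, 162, 254 and 196 CPM, lower in the trained sections. Dlk1 was at 36.7, 38.8, 16.0 and 27.8 and Zcchc12 at 151, 158, 145 and 137, both higher in the trained sections. The other genes of that list overlapped between the conditions, or had 0 UMIs in the case of Hmx3. Sim1 had the same order of sections as Oxt but few UMIs, and it did not pass the test between conditions outside the hippocampal layers (log2 fold change 1.30, adjusted p = 0.654, edgeR). These genes were picked after their values were seen, and the share of all genes whose conditions did not overlap was not counted. The plane of the cut and the condition cannot be told apart for Oxt with 2 sections in each group.

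Within the hypothalamus-led spots the order of the sections was the same as over the whole section for Oxt. Oxt was at 1156 CPM in trained 1 (1087 to 1229), 205 in trained 2 (183 to 228), 15.0 in untrained 1 (6.84 to 28.4) and 2.62 in untrained 2 (0.318 to 9.48). These spots held 57.0% and 58.5% of the Oxt UMIs of the 2 trained sections. Avp was at 1236, 599, 74.8 and 28.9 CPM there. The Avp site of untrained 1 had its peak in an ependyma-led spot, and the largest one of trained 2 in a meninges-led spot. Part of the Avp of these sections thus lay outside the hypothalamus-led spots. Most of the remaining Oxt of trained 1 sat in midline spots led by the ependyma list or was spread thinly over the section.

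The thin spread was measured against the distance to the nearest site spot. In trained 1 the Oxt site spots held 33.3 UMIs per spot, and the spots at 1, 2 and 3 steps held 2.51, 1.65 and 1.16. The count fell to 0.591 at 4 to 5 steps, 0.266 at 6 to 10 steps and 0.134 at 11 to 20 steps. Beyond that it stayed level, with 0.110 at 21 to 30 steps and 0.127 at more than 30. The fall thus ended at about 10 steps and left a floor across the rest of the section.

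Avp, Pmch and Hcrt had such a floor as well. In CPM, Pmch in trained 2 went from 20742 in site spots to 1055 at 1 step and 292 at 6 to 10 steps, and was at 263, 276 and 281 in the 3 farthest distance classes. Hcrt in the same section went from 16826 to 854 and 163, and was at 133, 134 and 127 in the farthest classes. Avp in untrained 1 ended at 53.5, 63.2 and 49.9. For Oxt, Avp, Pmch and Hcrt the intervals of the 2 farthest classes overlapped in every section with a site. Gal in trained 2 was at 20.3 (13.9 to 28.7), 23.6 (17.2 to 31.6) and 12.4 (9.60 to 15.7) in the 3 farthest classes, and Trh at 19.3 (13.3 to 27.1), 21.7 (15.7 to 29.2) and 11.4 (8.60 to 14.7), both lower in the last class.

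**Figure D3:**
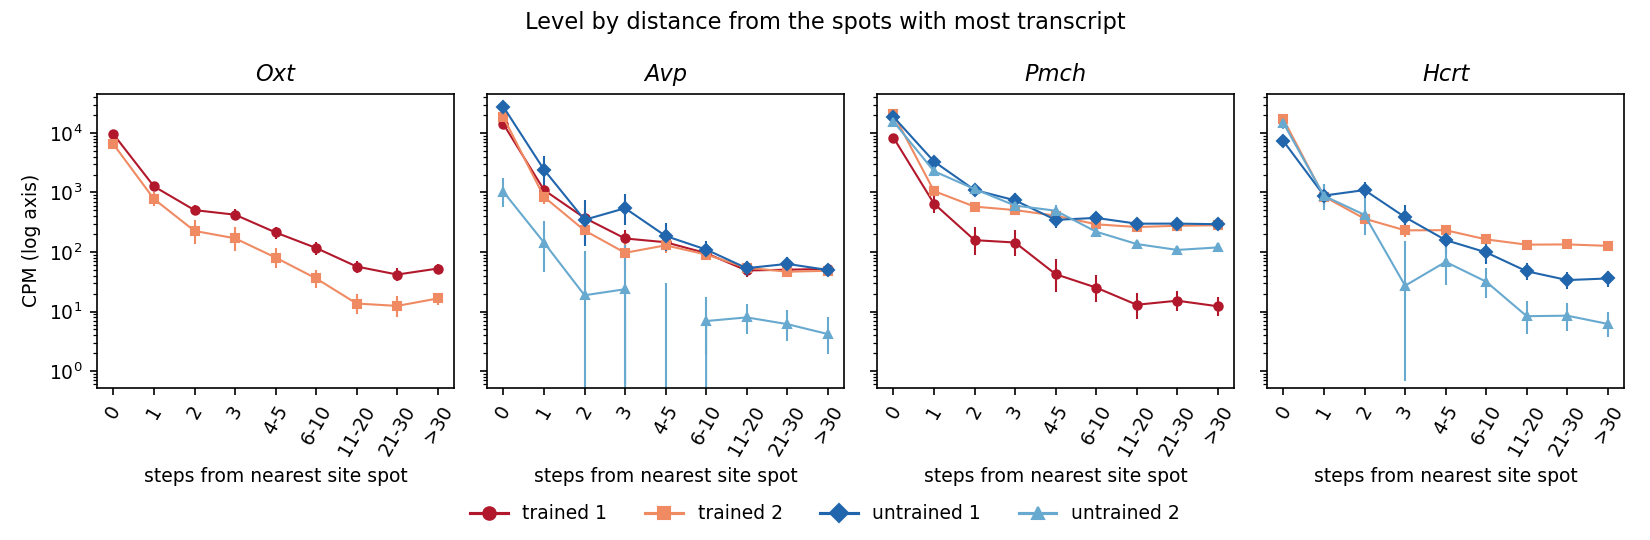
Level in CPM (y axis, log scale) of Oxt, Avp, Pmch and Hcrt by the number of steps to the nearest site spot (x axis, classes), with exact Poisson 95% intervals and 1 line per section that has a site. The lines fall mostly within about 10 steps and change less beyond. There Oxt is at about 50 in trained 1 and Pmch near 300 in trained 2 and untrained 1. Pmch in untrained 2 is at 219 at 6 to 10 steps, 136 at 11 to 20 and 108 at 21 to 30. In every line the intervals of the 2 farthest classes overlap. Classes with 0 UMIs have no point.

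The level far from the sites of a gene differed between sections. Over all spots more than 10 steps from a site, Oxt was at 50.4 CPM in trained 1 (44.7 to 56.7, 2277 spots) and 14.9 in trained 2 (12.4 to 17.7, 2488 spots). Pmch was at 13.4, 274, 298 and 119 in trained 1, trained 2, untrained 1 and untrained 2. Pmch site spots numbered 6, 111, 30 and 51 in the same order, so the section with the fewest had the lowest distant level, but the other sections were not in the order of their site spots. Outside the block, the level more than 10 steps from a site was 20.1% to 65.8% of the gene's level over the whole section in the 15 pairs of a gene and a section with a site. The 2 highest shares were those of Avp in the untrained sections.

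The hippocampal block held Oxt UMIs in the trained sections only. There were 28 UMIs in 22 of 212 spots in trained 1 and 18 in 17 of 198 spots in trained 2, and 0 in the 215 and 201 spots of the untrained sections. In CPM these were 41.9 (27.9 to 60.6) and 21.2 (12.6 to 33.6), and the counts of 0 allow up to 8.91 in untrained 1 and 4.65 in untrained 2 (3 counts). In all spots led by the CA1, CA3 or DG lists, Oxt had 58, 29, 0 and 0 UMIs, at 49.4 and 23.3 CPM in the trained sections. The trained and untrained sections were apart in the hippocampus as they were in the whole section.

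The intervals of Oxt in the hippocampal block overlapped those of the cortex-led and striatum-led spots, regions that lack oxytocin neurons. In trained 1 Oxt was at 54.5 CPM in cortex-led spots (43.6 to 67.3), 89.2 in thalamus-led spots (71.7 to 109.6), 29.7 in striatum-led spots (19.1 to 44.3) and 41.9 in the block. The thalamus-led spots include some within 10 steps of an Oxt site, and without those they were at 65.0. White-matter-led spots more than 10 steps from a site were at 90.3 (61.3 to 128), above the interval of the block. In trained 2 Oxt was at 17.2 in cortex-led spots (12.0 to 23.9), 14.5 in thalamus-led spots (9.80 to 20.7) and 11.7 in striatum-led spots (6.05 to 20.5), against 21.2 in the block. White-matter-led spots more than 10 steps from a site were at 8.43 (4.21 to 15.1) there. By the share of spots with at least 1 UMI, the block had 10.4% and 8.59% in the trained sections, and the cortex-led spots had 14.6% and 6.60%. The median depth was 2513.5 and 3322.5 UMIs per spot in the block and 2492.5 and 3183.5 in the cortex-led spots. The block's share was below that of the cortex in trained 1 and above it in trained 2, and a part of free RNA in these UMIs was not tested.

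The block was far from every site. The nearest Oxt site spot lay 24 steps from it in trained 1 and 33 steps in trained 2, and over all genes with a site this distance was 19 to 36 steps. For Oxt, Avp, Pmch and Hcrt these distances lie in the 2 farthest classes, whose intervals overlapped, except for Pmch in untrained 2. There the nearest site spot lay 19 steps away, and Pmch was at 136 CPM at 11 to 20 steps and 108 at 21 to 30.

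The other hormones were compared in the same way. Pmch was at 299.7 CPM in the block of trained 2 (264 to 339) and 277 in its cortex-led spots, and at 282 (228 to 345) against 312 in untrained 1. In untrained 2 it was at 138 (111 to 169.7) against 117, and in trained 1 at 12.0 (5.17 to 23.6) against 14.6. Hcrt was at 120.4 in the block of trained 2 (98.1 to 146) and 129 in its cortex-led spots. In trained 2 a Pmch UMI was found in 60.1% of the block's spots and in 60.4% of the cortex-led spots. Across the sections the hippocampal level of Pmch followed its level in the cortex.

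Avp was at 50.9 (35.2 to 71.1), 37.8 (25.8 to 53.3), 50.5 (29.4 to 80.9) and 6.20 (1.69 to 15.9) CPM in the block of trained 1, trained 2, untrained 1 and untrained 2. Its cortex-led spots were at 49.5, 46.2, 49.3 and 6.13. Untrained 1 matched the trained sections in both, and untrained 2 was apart in both. Gal, Trh and Crh had at most 12 UMIs each in any block, and their intervals overlapped between the conditions.

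In 15 of 15 pairs of a gene and a section with a site, the level of the other spots more than 10 steps away lay inside the interval of the block. The ratio of the block to those spots ran from 0.594 for Trh in trained 2 to 1.5 for Oxt in trained 2. The pairs share libraries and totals, so they are not independent. The Oxt ratio was 0.813 in trained 1, so the 2 trained sections lay on opposite sides of equality.

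**Figure D4:**
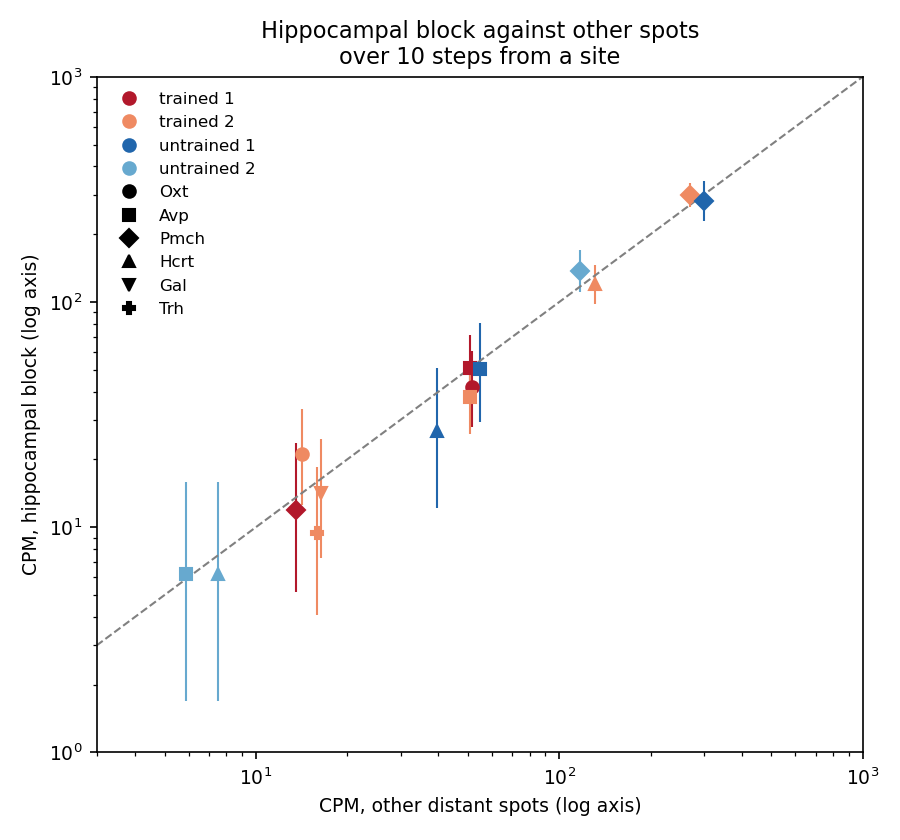
Level in CPM of a hormone gene in the hippocampal block (y axis, log scale, with exact Poisson 95% intervals) against all other spots more than 10 steps from a site of that gene (x axis, log scale), 1 point for each of the 15 pairs of gene (shape) and section (colour). The dashed line marks equal levels and runs through the interval of every point.

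Spot barcodes mark array positions, and 1330 of them were over tissue in all 4 sections. The 11 spots of untrained 1 and the 5 spots of untrained 2 with an Oxt UMI include 0 whose barcode had 10 or more Oxt UMIs in a trained section.

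The genes whose spots were most like those of each hormone gene were named by the lowest Pearson r over the sections with at least 20 UMIs of it, computed over spots on log2(UMIs per 10000 + 1). For Oxt they were Avp (r 0.30 in trained 1 and 0.46 in trained 2), Resp18, Otp (0.35 and 0.16), Hap1 and Baiap3. For Pmch they were Resp18 (0.16 to 0.30 over 4 sections), Cartpt (0.14 to 0.35), Sparc, 6330403K07Rik and Tmem130. For Hcrt they were Pmch (0.15 to 0.32 over 3 sections), Nnat, Resp18, Dlk1 and Tmem130. Resp18, Hap1, Baiap3 and Dlk1 are also genes of the hypothalamus marker list. The genes of Avp, Gal, Trh and Crh had lowest r values of at most 0.09, too weak to be a finding, and for Avp the 4 sections include untrained 2 with 59 UMIs. All spots of a section share a library and its depth, so these r are descriptions.

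Receptors were low in every section. Avpr2 and Galr2 had 0 UMIs over the 4 sections, and Avpr1b (2), Galr3 (1), Trhr2 (5) and Galr1 (18) had fewer than 20. Oxtr, the oxytocin receptor, had 99 UMIs, with 4.49, 2.23, 6.74 and 3.04 CPM in trained 1, trained 2, untrained 1 and untrained 2. The conditions overlapped, and the block held 1, 0, 2 and 1 Oxtr UMIs. Avpr1a, a vasopressin receptor, had 21 UMIs in all and 0 in every block.

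Mchr1, the receptor for melanin-concentrating hormone, was detected in the block itself. It was at 29.9, 31.9, 23.8 and 20.1 CPM there, against 17.0, 18.1, 20.8 and 17.3 over the whole section. The block was higher than its own section in all 4 sections, which none of the 7 hormone genes was. This difference between regions was not tested, and no interval for counting error was computed for Mchr1. Crhr1, a receptor for corticotropin-releasing hormone, was at 15.0, 14.9, 9.27 and 14.4 over the sections, with 7, 9, 1 and 6 UMIs in the block. Trhr had 97 UMIs over the 4 sections, Hcrtr1 75, Crhr2 64 and Hcrtr2 49. Of these 4 receptors, the block held at most 4 UMIs each in any section.

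**Figure D5:**
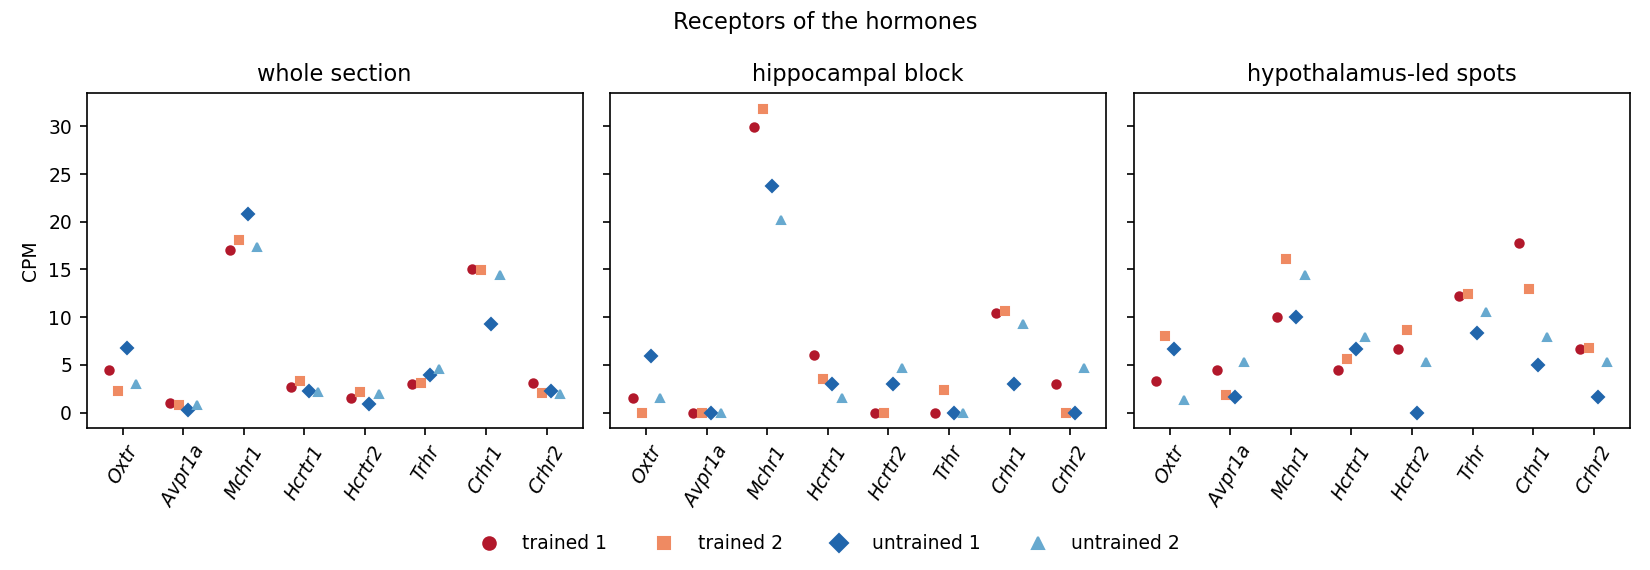
Level in CPM (y axis) of the 8 receptor genes with at least 20 UMIs (x axis) over the whole section, in the hippocampal block and in the hypothalamus-led spots, 1 point per section. Mchr1 lies between 20.1 and 31.9 in the block, and Oxtr and Avpr1a are near 0 there.

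Trained and untrained sums were compared for the other genes of the pathway with edgeR's quasi-likelihood test and Benjamini-Hochberg adjustment over all genes tested, with 2 sections in each group. The hippocampal layers are here all spots led by the CA1, CA3 or DG lists, the scattered ones included. In them 11 of 10422 genes passed an adjusted p of 0.05 (0.106%), 4 of 13540 did in the other spots (0.0295%) and 9 of 9503 did in the hypothalamus-led spots (0.0947%). Oxt is one of the genes in each of these counts and Avp one in the hypothalamus, which says nothing further, as Oxt was chosen for this contrast. In the contiguous block 0 of 8717 genes passed, Oxt included, with 431 at an unadjusted p under 0.05 (edgeR).

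Of the receptors, 2 of 14 were tested in the hippocampal layers, 7 in the other spots and 3 in the hypothalamus, and 0 passed, with 0 at an unadjusted p under 0.05 as well. Among the genes that bind or break down the peptides, 4, 5 and 4 of 5 were tested and 0 passed, with 0, 1 and 0 at an unadjusted p under 0.05. The 3 with most UMIs were Lnpep, which cleaves oxytocin and vasopressin (1947), Prep (640) and Trhde, which degrades thyrotropin-releasing hormone (460). Lnpep was at 76.7, 68.9, 72.2 and 65.6 CPM over trained 1, trained 2, untrained 1 and untrained 2. These levels were even over sections whose Oxt was not.

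No gene of peptide processing and secretory granules passed the test. Of 15 listed, 14 were tested in the hippocampal layers, 15 in the other spots and 14 in the hypothalamus, and 0 passed, with 0 at an unadjusted p under 0.05. Their UMIs over the 4 sections ran from 50 for Ptprn2 to 62430 for Cpe. Cpe, a carboxypeptidase that trims prohormones, was at 1903, 2671, 2138 and 2078 CPM over the sections. Pcsk1n, an inhibitor of a prohormone convertase, was at 1684, 1658, 1721 and 1714, and Scg5, a partner of another convertase, at 472, 547, 406 and 435. The median log2 fold change of the list was -0.00 in the hippocampal layers, beside 0.00 over all genes tested. Vgf, a granule peptide precursor, passed in the hippocampal layers and in the other spots without trained 1.

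Of 9 factors that neuroendocrine neurons need, 3, 8 and 2 were tested in the hippocampal layers, the other spots and the hypothalamus, and 0 passed, with 0 at an unadjusted p under 0.05. The 3 with most UMIs were Arnt2 (2979), Lhx9 (319) and Pou3f2 (318). Arnt2, a partner of Sim1, was at 113, 105, 108 and 107 CPM, with little spread between sections.

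The other hypothalamic peptides gave 1 gene that passed. Of 23 listed, 11 were tested in the hippocampal layers, 17 in the other spots and 12 in the hypothalamus, and 4 in each had an unadjusted p under 0.05, against 7.31%, 7.68% and 6.88% of all genes tested. The median log2 fold change of the list was -0.40 in the hippocampal layers, where 2 of the 11 had a positive value, 0.07 in the other spots and 0.09 in the hypothalamus, beside 0.00, 0.01 and 0.01 over all genes tested. Sst, the somatostatin gene, was at 509, 348, 838 and 919.5 CPM in the hypothalamus-led spots of trained 1, trained 2, untrained 1 and untrained 2, and the groups did not overlap. It fell by 1.10 on the log2 scale in trained sections (edgeR's quasi-likelihood test, adjusted p = 0.0336). Without trained 2 the log2 fold change was -0.81 (adjusted p = 0.268, edgeR), and with regions named from single spots it was -0.85 (adjusted p = 0.230, edgeR). DESeq2 also called Sst there.

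Sst was also lower in trained sections in the other comparisons without passing the test as fitted. Outside the hippocampal layers Sst passed with no filter and with the replicate number as a block, but not with DESeq2 or thinned sums. Its log2 fold change was -0.62 in the spots outside the hippocampal layers (adjusted p = 0.336, edgeR) and -0.39 in the hippocampal layers (adjusted p = 0.60, edgeR). In the contiguous block it was 0.19, so the sign turned there. Penk (8084 UMIs), the enkephalin gene, was at 346, 306, 259 and 234 CPM over the sections, but at 146, 116, 227 and 160 in the hippocampal layers. Its log2 fold change was -0.59 in those layers (adjusted p = 0.479, edgeR) and 0.39 in the other spots (adjusted p = 0.567, edgeR). Npy (5049 UMIs), the neuropeptide Y gene, was at 197, 153, 168 and 223 CPM over the sections. In the hypothalamus-led spots the log2 fold change of Npy was -1.14 (adjusted p = 0.239, edgeR). The genes of the cortex list summed to 359, 371, 455 and 350 CPM in the hypothalamus-led spots, and their part in the Sst result was not tested. Sst was the only gene of the 5 lists to pass in these 3 comparisons as fitted, but others passed under alternatives: without trained 1, 4 did in the hippocampal layers (Nts, Penk, Sst and Vgf), 6 in the hypothalamus and 9 in the other spots. In that fit 1.86%, 0.786% and 5% of all genes tested in these spots passed.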

How the data were processed

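Visium spatial gene expression was measured in 1 coronal section from each of 2 trained and 2 untrained mice. The files deposited by the authors hold raw UMI counts, integers for every gene in each spot over tissue, with no scaling. The methods name Space Ranger v2.0.0 and mm10, the count files' headers name Space Ranger 1.2.2, and the submitters' processing notes list Cell Ranger 8, STAR and GRCm39. Coordinates are from GENCODE vM21 (mm10). The reference's gene models decide which reads were counted, so a version could shift counts. Total UMIs ranged from 3560294 to 10330015 per section, and a count of 0 was given a limit of 3 counts. Intervals cover counting error only.

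A spot was named by the marker list, of 12, with the highest mean z score of ln(UMIs per 10000 + 1), averaged over a spot and its up to 6 neighbours. Of the 8 CA1 genes, 7 were found by symbol. The quasi-likelihood test of edgeR 4.0.16 in R 4.3.3, after filterByExpr and TMM scaling, was run on sums per section with 2 residual degrees of freedom, and DESeq2 1.42.0 was an alternative. The study's own rank-sum test on single spots takes spots as replicates and was not used. The edgeR fits were also run on simulated counts, and the outcome is not given here. All other values were computed in Python 3.11.15 with numpy 2.4.6 and scipy 1.17.1.

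The 7 genes, the pathway lists and the tests were chosen with earlier results of these data known. The genes named were the 7, every called gene of the 5 pathway lists, receptors with at least 20 UMIs, the 3 genes of each other list with most UMIs, and for likeness the 5 genes with the highest lowest r among genes with at least 50 UMIs. Sim1, Otp, Nr5a1, Hap1, Dlk1, Zcchc12, Ptprn2, receptors under 20 UMIs and genes called only under an alternative were named after their values were seen. Alternatives were another tool, no filter, thinned sums, a replicate block, other region rules, another denominator and leaving out each section. Single-nucleus data and section images were not analysed here.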

Additional observations from a re-analysis of the deposited data

How the results depend on the processing

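Counts of genes called moved with most settings. In the hippocampal layers (11 genes) DESeq2 called 6, no filter 52, the layers without outer spots 2 and the contiguous block, chosen after seeing the data, 0 (431 at an unadjusted p under 0.05). In the other spots (4 genes) DESeq2 called 13 and no filter 170. In the hypothalamus (9 genes) no filter called 56 and regions from single spots 20. With the replicate number as a block the counts were 90, 57 and 24. Over genes, the deviations of trained 1 and untrained 1 from their group means correlated at 0.0005, 0.0052 and 0.081. With 2 sections in each group this cannot tell whether same-numbered sections shared a batch. Without 1 section the counts ran from 15 to 204 in the hippocampal layers, 5 to 690 in the other spots and 21 to 81 in the hypothalamus, each highest without trained 1 or untrained 2. The cause was not tested.

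The mean Oxt level of trained minus untrained hippocampal layers was 36.4 CPM, 138 with regions from single spots, and 23.3 to 49.4 without 1 section. With regions from single spots the difference was 61.3 for Avp (1.55 in the layers as named) and 8.27 for Trh (-2.97), and with the contiguous block it was 3.97 for Crh (-1.77). The other 50 of 56 differences under an alternative moved by less than 1 SD between sections, which is wide, and 15 of the 56 turned sign. Oxt turned in 0 of 8, Avp in 3 (-39.5 to 61.3), Pmch in 3 (-199.6 to 94.5 around -52.5), Hcrt in 1 (-20.1 to 117 around 48.6), Gal in 1, Trh in 5 and Crh in 2. The share of a gene's UMIs within 2 steps of its peak had a median of 23.4% over 17 pairs of gene and section with at least 100 UMIs, and 1.36% around the UMI-weighted centre, although 42.9% for Pmch in trained 1. The log2 fold change of Sst in the hippocampal layers turned to 0.19 in the contiguous block. In the genes of the 5 lists, no filter called 5 in the hypothalamus (Agrp, Npvf, Npy, Pdyn and Sst) and 5 in the other spots, and Penk passed, lower in trained sections, in the hippocampal layers with the replicate block and without untrained 2. Without trained 2, Cartpt and Pomc passed in the hypothalamus, and Cartpt and Penk, the latter higher in the trained section, in the other spots. Few UMIs limit the precision for Crh, most receptors and Oxt in the untrained sections.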
